A study of Mus musculus with 6 samples.

Results

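A set of 10 plasma membrane amino acid transporter genes that belong to the cellular response to amino acid and mitochondrial stress were followed in Letmd1 knockout brown adipose tissue (BAT): Slc7a1, Slc7a3, Slc3a2, Slc7a5, Slc7a11, Slc1a4, Slc1a5, Slc6a9, Slc38a1 and Slc38a2. The genes were selected by symbol, and each of the 10 was found on 1 of the 23282 rows of the count files. The interscapular BAT depot of 3 wild-type and 3 Letmd1 KO mice was profiled by QuantSeq, a method that sequences mRNA from its 3′ end and gives counts that do not scale with gene length. All 6 were 5-week-old males of strain C57BL/6N with no treatment given in the labels, which name genotype as the only difference between the groups. The Letmd1 KO mice are homozygous for a knockout-first null allele from 1 ES cell clone, with a lacZ and neomycin resistance cassette in an intron of Letmd1, and lack the gene in every tissue and not in brown adipocytes alone.

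When amino acids run short or mitochondria fail, kinases of the integrated stress response phosphorylate the translation factor eIF2α, and the transcription factor ATF4 is made in larger amounts. ATF4 pairs with C/EBP proteins on the C/EBP-ATF response element and raises transcription of genes that make, import and charge amino acids. The transporters described here bring in the cationic amino acids arginine and lysine, large neutral amino acids, cystine for glutathione, small neutral amino acids including glutamine and serine, and glycine.

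The libraries held between 6669577 and 14574273 counts, and the level that 3 counts stand for, below which a gene without counts could lie, was between 0.176 and 0.397 CPM (counts per 1000000 of the TMM-scaled library size). This floor covers counting error only. Letmd1 was at 610, 688 and 687 CPM in the wild-type mice and was left with 0, 0 and 1 counts after knockout. Ucp1, the uncoupling protein that defines brown adipocytes, was present in all 6 mice, at 6328 ± 519 CPM in wild-type and 382 ± 114 CPM in Letmd1 KO BAT (SD, n = 3 each). The test was the quasi-likelihood test of edgeR, with p-values adjusted by the Benjamini-Hochberg method over the 12995 genes that passed a filter on low counts. At an adjusted p under 0.05, 23.7% of these genes were higher and 22.3% lower in Letmd1 KO BAT, 46.0% in all. The labels do not say whether the mice of a group were littermates, and in bulk tissue fewer cells of a type and less RNA per cell cannot be told apart.

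In all, 7 of the 10 transporters were higher in Letmd1 KO BAT, 1 was lower, 1 did not pass the threshold and 1 was too low to be tested. Those that rose were Slc7a1, Slc3a2, Slc7a5, Slc7a11, Slc1a4, Slc6a9 and Slc38a1. Of these, 6 were scarce in wild-type BAT, at means between 0 and 3.30 CPM, while Slc3a2 started at 131 ± 33.9 CPM (SD, n = 3). The gene that fell was Slc1a5, the most abundant of the 10 by mean in both genotypes and in 5 of the 6 mice (in Letmd1 KO replicate 1, Slc3a2 stood at 307 CPM and Slc1a5 at 301). Slc38a2, at a level close to that of Slc3a2 in wild-type BAT, had overlapping values in both genotypes. Slc7a3 was scarce throughout, at 6 to 19 counts per mouse, above the floor of 3. Values of the Letmd1 KO mice did not overlap those of the wild-type mice for the 7 that rose and the 1 that fell, against 30.1% of all genes tested that lay wholly above and 27.2% wholly below the wild-type range. The filter was passed through the Letmd1 KO mice alone by Slc7a5 and Slc7a11, whose counts were under its minimum in each wild-type mouse, so that these genes could enter the test only as higher genes. It asked for 3 mice over 1.02 CPM before TMM scaling. Slc38a1 had 1 wild-type mouse over that level and Slc1a4 and Slc6a9 had 2 each, so these genes also needed Letmd1 KO mice to be tested.

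**Figure D1:**
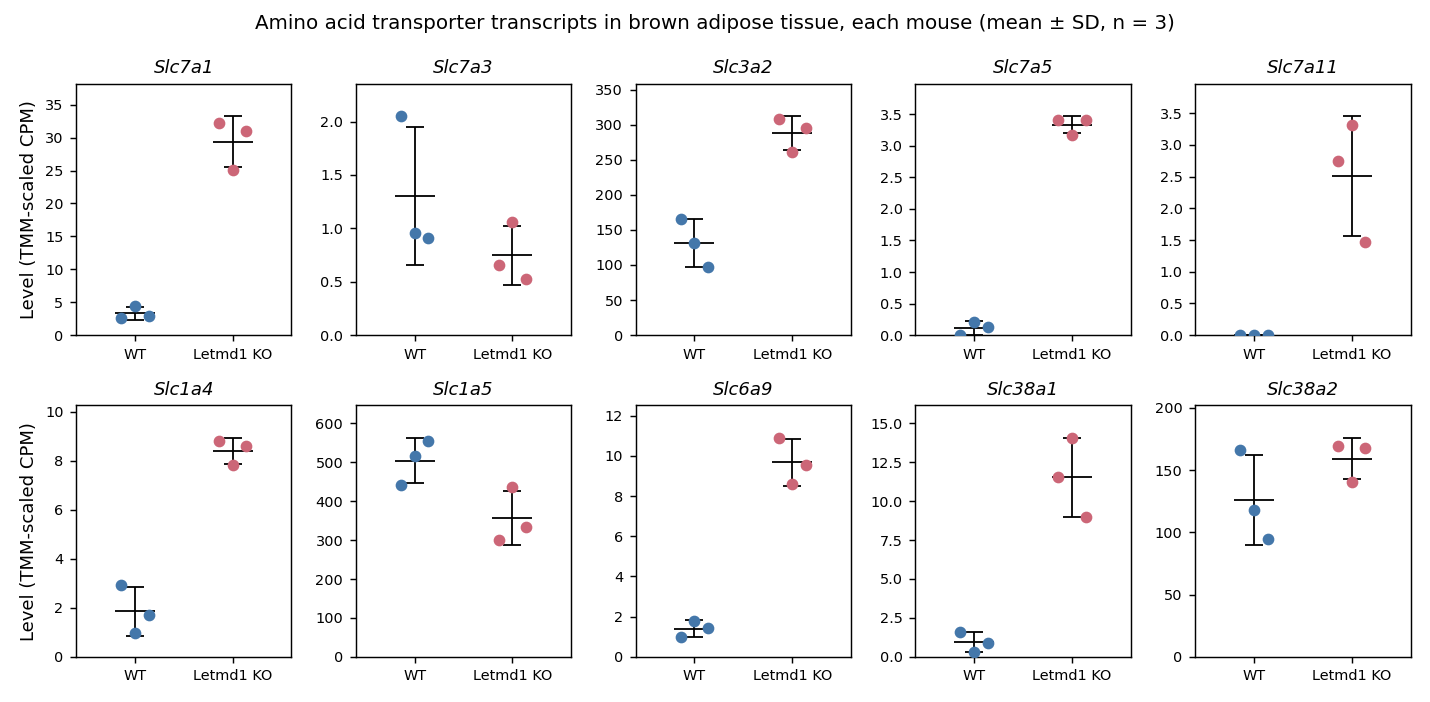
Level of each of the 10 transporters in each mouse in TMM-scaled CPM, on a linear axis from 0 that differs between panels; points are mice, bars the mean ± SD of 3 mice. The Letmd1 KO mice lie above all wild-type mice in 7 panels and below them in that of Slc1a5, while the groups overlap for Slc7a3 and Slc38a2.

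The cationic transporters Slc7a1 and Slc7a3 encode CAT1 and CAT3, which carry arginine, lysine and ornithine. Slc7a1, on the minus strand of chr5:148327410-148399904 (GRCm38), was at 2.59, 4.45 and 2.87 CPM in the wild-type mice and at 32.2, 25.0 and 30.9 CPM in the Letmd1 KO mice. The lowest knockout value was several times the highest wild-type value. Its log2 fold change was 3.14 (SE 0.23, adjusted p = 1.46e-05, edgeR quasi-likelihood), which is 8.84-fold, and it had the smallest p of the 10. Slc7a3, on the minus strand of chrX:101079210-101086020, had 19, 9 and 7 counts in wild-type BAT against 6, 8 and 9 after knockout. Wild-type replicate 1 held more than the other two wild-type mice together, whose levels lay inside the knockout range. The ratio of its summed scaled counts was 0.515 (95% interval 0.291 to 0.897 for counting error only). It did not pass the filter, and when the filter was left out it did not pass the threshold. A further gene of this type, Slc7a2, which encodes CAT2, was at 4.20, 4.45 and 2.35 CPM in wild-type and at 24.1, 18.9 and 18.2 CPM after knockout, with a log2 fold change of 2.45 (SE 0.26, adjusted p = 8.3e-05 from edgeR). Both Slc7a1 and Slc7a2 rose from a few CPM.

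Slc3a2 encodes the heavy chain CD98hc (4F2hc), a glycoprotein without transport activity of its own that takes its partner light chains to the plasma membrane. It lies on the minus strand of chr19:8706882-8723369. Its level was 165, 131 and 97.4 CPM in the wild-type mice and 307, 261 and 295 CPM in the Letmd1 KO mice, with a log2 fold change of 1.13 (SE 0.18, adjusted p = 0.000831, edgeR quasi-likelihood). The wild-type mice spread more than the Letmd1 KO mice, and the groups stayed well apart. Among 8 annotated coding transcripts of Slc3a2, the last 500 bases of 1 held a stretch of at least 75 bases at 95% identity or more to transcripts of 650 other genes. The deposited counts include multiple alignments, so reads from that end cannot be assigned with certainty.

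The light chains Slc7a5 and Slc7a11 were almost absent from wild-type BAT. Slc7a5 encodes LAT1, which exchanges glutamine for leucine and other large neutral amino acids, and lies on the minus strand of chr8:121881150-121907694. Wild-type BAT gave 0, 2 and 1 counts of it and Letmd1 KO BAT 31, 24 and 58, where its level was 3.41, 3.18 and 3.41 CPM. The ratio of the summed scaled counts was 29.5, with a 95% interval of 9.85 to 145 that covers counting error only (exact Clopper-Pearson bounds), and the adjusted p was 0.000297 by edgeR. The 3 knockout mice were nearly equal in this gene. The fitted log2 fold change, which depends on the count added before logs are taken, was 4.73 and became 5.53 without wild-type replicate 2. On the opposite strand, the annotation places Gm20388 across Slc7a5 and Gm37854, Gm37826 and Gm2345 across Slc7a11. Reads of these genes could not be told apart from those of the transporters without strand. Gm37692 and Gm37498 overlap Slc7a11 on the same strand, where strand would not tell reads apart.

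Slc7a11 encodes xCT, which takes up cystine in exchange for glutamate and so feeds glutathione synthesis. It lies on the minus strand of chr3:49892526-50443614. No wild-type mouse had a count, and each Letmd1 KO mouse had 25, which corresponded to 2.75, 3.31 and 1.47 CPM. The mean of the Letmd1 KO mice was 7.29 times the mean level that 3 counts stand for in the wild-type mice. That ratio leaves out the counting error and spread of the Letmd1 KO mice. The adjusted p was 0.00107 by edgeR. The 300 bases around its start (250 before and 50 after, RefSeq on GRCm38.p6, 5′ to 3′ on the strand of the gene) are printed here because they hold the C/EBP-ATF response element on both strands, beside those of Slc1a4, the only other transporter of the 10 with a match among the windows at hand. Capitals mark the element, searched as TGATGNAA on both strands, which reads TTGCATCA where it lies on the opposite strand.
Slc7a11 (chr3:50443564-50443863, minus strand): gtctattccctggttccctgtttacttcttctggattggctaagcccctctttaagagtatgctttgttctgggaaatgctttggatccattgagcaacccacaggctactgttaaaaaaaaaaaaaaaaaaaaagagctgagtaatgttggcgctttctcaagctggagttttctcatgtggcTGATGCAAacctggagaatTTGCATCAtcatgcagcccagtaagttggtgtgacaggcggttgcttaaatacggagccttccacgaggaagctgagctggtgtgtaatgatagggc
Slc1a4 (chr11:20332664-20332963, minus strand): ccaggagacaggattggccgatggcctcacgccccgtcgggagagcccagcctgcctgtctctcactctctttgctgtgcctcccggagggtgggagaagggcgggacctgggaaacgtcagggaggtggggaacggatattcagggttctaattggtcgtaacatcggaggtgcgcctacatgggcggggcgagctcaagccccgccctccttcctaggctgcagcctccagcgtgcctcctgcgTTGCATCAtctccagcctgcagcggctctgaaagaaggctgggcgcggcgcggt
In Slc7a11 the matches begin 66 and 47 bases before the start, and in Slc1a4 the match begins 4 bases before it. Promoter windows were at hand for Slc7a11, Slc6a9, Slc7a1, Slc1a4, Slc38a2 and Slc3a2, with 9 windows for these 6 genes, and 2 of the 9 held the element. Of all 32851 promoter windows of this length, 3.97% held it. The core of the antioxidant response element bound by NRF2, searched as TGACNNNGC on both strands, was in 4 of the 9 windows (Slc6a9 in 2, Slc7a1 and Slc38a2) and in 12.4% of all windows. A match of letters is a description of the sequence and not a measured binding site. No window was at hand for Slc7a3, Slc7a5, Slc1a5 and Slc38a1.

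There are 6 light chains known to pair with the heavy chain Slc3a2, namely Slc7a5, Slc7a6, Slc7a7, Slc7a8, Slc7a10 and Slc7a11, and the 4 that are not among the 10 transporters were looked at after values had been seen. Slc7a6 (y+LAT2), the main light chain of wild-type BAT, was at 46.4, 42.3 and 35.6 CPM there and fell to 14.6, 12.7 and 13.1 CPM in the Letmd1 KO mice (log2 fold change -1.62, SE 0.15, adjusted p = 4.04e-05 from edgeR). Slc7a8 (LAT2) rose from 3.31 ± 1.58 to 15.9 ± 2.69 CPM (SD, n = 3 each, adjusted p = 0.000552 from edgeR) and Slc7a7 (y+LAT1) from 3.62 ± 0.77 to 7.56 ± 1.51 CPM (SD, n = 3 each, adjusted p = 0.0152 from edgeR). The call for Slc7a7 was lost by quantile normalization (log2 fold change 0.62, adjusted p = 0.091 from limma). Slc7a10 (ASC-1) was at 20.2 ± 3.43 and 22.1 ± 10.9 CPM (SD, n = 3 each), with Letmd1 KO replicate 2 at 34.7 CPM and the others at 16.8 and 14.9. Summed over the 6 light chains, the level was 79.6, 67.1 and 59.3 CPM in wild-type and 58.8, 79.0 and 57.0 CPM in Letmd1 KO mice, and the groups overlapped. Relative to the level of Slc3a2, the light chains came to 53.4 ± 6.68% in wild-type and 22.9 ± 6.38% in Letmd1 KO mice (SD, n = 3 each). Slc7a6 held 60.4 ± 2.41% of the light chain level in wild-type and 21.3 ± 4.63% in Letmd1 KO BAT, while Slc7a8 went from 4.67 ± 1.65% to 25.0 ± 6.08% and Slc7a5 and Slc7a11 reached 5.27 ± 1.08% and 3.81 ± 1.10% (SD, n = 3 each).

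**Figure D2:**
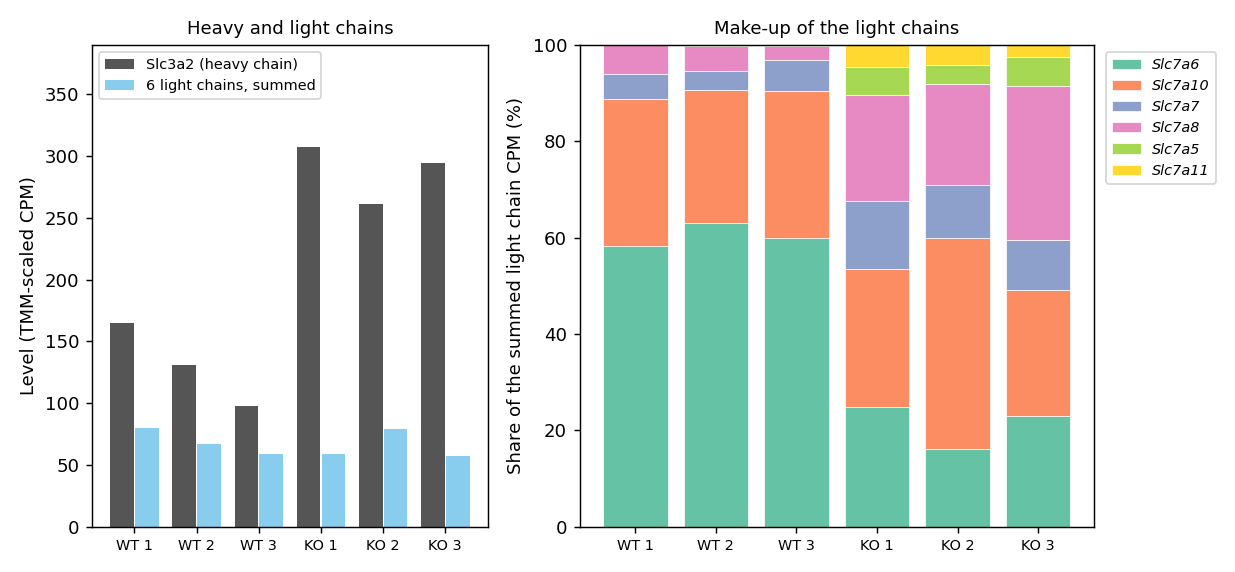
Left, level of the heavy chain Slc3a2 and the summed level of its 6 light chains in TMM-scaled CPM (bars from 0, 1 pair per mouse); right, the share of each light chain in that sum in percent. Slc3a2 is higher in the 3 Letmd1 KO mice while the light chain sum stays between 57.0 and 79.6 CPM in all 6, and the share of Slc7a6 is 58.3 to 63.0% in the wild-type and 16.1 to 24.9% in the Letmd1 KO mice.

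The neutral amino acid exchangers Slc1a4 and Slc1a5 differed in direction with TMM scaling. The call for Slc1a5 was lost with library size alone and by quantile normalization, and was kept with DESeq2 (log2 fold change -0.51, adjusted p = 0.00661 from DESeq2). Slc1a4 encodes ASCT1, which carries serine, alanine and cysteine, and lies on the minus strand of chr11:20302180-20332713. It was at 2.91, 0.95 and 1.70 CPM in the wild-type mice and at 8.79, 7.81 and 8.59 CPM in the Letmd1 KO mice, with a log2 fold change of 2.17 (SE 0.37, adjusted p = 0.00133, edgeR quasi-likelihood). Slc1a5 encodes ASCT2, the major glutamine exchanger of many growing cells, and lies on the plus strand of chr7:16781340-16798274. Its level was 441, 516 and 555 CPM in the wild-type mice and 301, 436 and 334 CPM in the Letmd1 KO mice. The highest knockout value, in replicate 2, came within 5 CPM of the lowest wild-type value, in replicate 1. The log2 fold change of Slc1a5 was -0.50 (SE 0.16, 95% interval -0.85 to -0.14, adjusted p = 0.0278 from edgeR), and this call was lost with library size alone (-0.08) and by quantile normalization (-0.13). It was also lost on leaving out wild-type replicate 2 (-0.50), wild-type replicate 3 (-0.43), Letmd1 KO replicate 1 (-0.39) or Letmd1 KO replicate 3 (-0.45), while the sign stayed negative in each case. Within each mouse, Slc1a4 came to 0.661, 0.185 and 0.305% of the level of Slc1a5 in wild-type and to 2.92, 1.79 and 2.57% in Letmd1 KO mice.

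Slc6a9 encodes the glycine transporter GlyT1 and lies on the plus strand of chr4:117834506-117875198. It was at 0.97, 1.80 and 1.43 CPM in the wild-type mice and at 10.9, 8.60 and 9.53 CPM in the Letmd1 KO mice, with a log2 fold change of 2.78 (SE 0.30, adjusted p = 0.000104, edgeR quasi-likelihood). The 3′ end of Slc6a9 overlaps Ccdc24 on the opposite strand, and the last 500 bases of 4 of its 8 coding transcripts share sequence with transcripts of Ccdc24 or Gm17114. Ccdc24 was at 0.979 ± 0.37 CPM in wild-type and 6.25 ± 0.301 CPM in Letmd1 KO BAT (SD, n = 3 each), a log2 fold change of 2.65 (SE 0.36, adjusted p = 0.000328 from edgeR). Whether counting used the strand is not given in the sources used here, so reads of Slc6a9 and Ccdc24 cannot be told apart. B4galt2, which also overlaps Slc6a9 on the opposite strand, was at 2.33 ± 0.433 and 3.12 ± 0.675 CPM (SD, n = 3 each).

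Slc38a1 and Slc38a2 encode SNAT1 and SNAT2 of system A, which import glutamine, alanine and other small neutral amino acids with sodium. The genes are neighbours on the minus strand of chromosome 15, at chr15:96571418-96642913 and chr15:96687392-96699730, and lie 3.83 and 3.77 Mb from Letmd1. Slc38a1 was at 1.62, 0.318 and 0.913 CPM in the wild-type mice and at 11.5, 14.03 and 8.998 CPM in the Letmd1 KO mice, with a log2 fold change of 3.58 (SE 0.44, adjusted p = 0.000211, edgeR quasi-likelihood). That value was 4.24 without wild-type replicate 1, the highest wild-type mouse. Slc38a2, long known as a transporter that cells induce when amino acids are withdrawn, was at 166, 118 and 94.8 CPM in the wild-type mice and at 169, 140 and 168 CPM in the Letmd1 KO mice. Wild-type replicate 1 lay inside the range of the Letmd1 KO mice. The log2 fold change of Slc38a2 was 0.34 (SE 0.19, 95% interval -0.09 to 0.76, adjusted p = 0.176 from edgeR), and it passed the threshold without wild-type replicate 1 (0.58, adjusted p = 0.0172 from edgeR), with library size alone (0.76) and by quantile normalization (0.59). Within each mouse, Slc38a1 came to 0.976, 0.27 and 0.963% of the level of Slc38a2 in wild-type and to 6.82, 10 and 5.36% in Letmd1 KO mice.

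**Figure D3:**
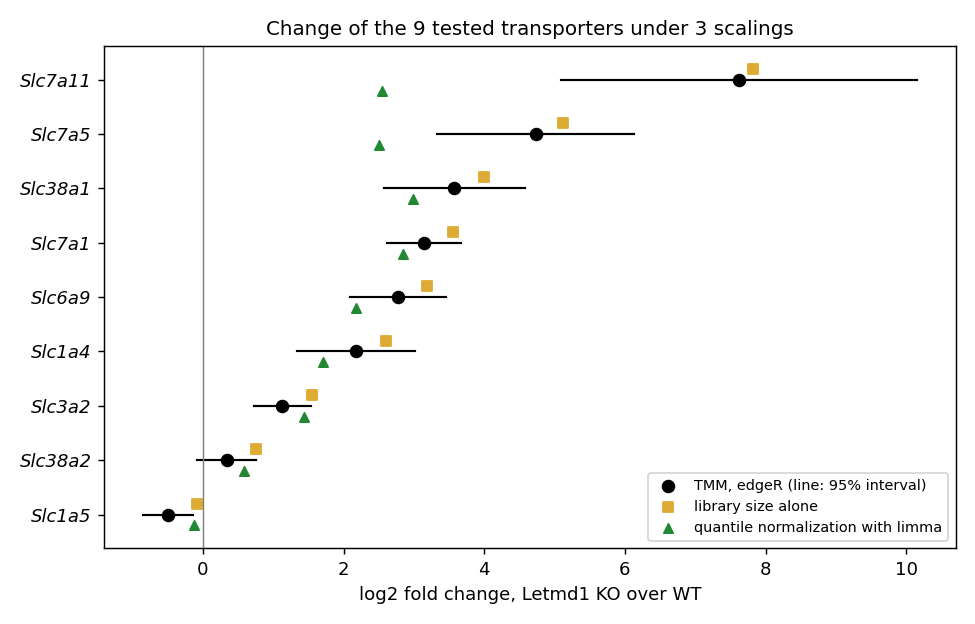
Log2 fold change of Letmd1 KO over wild-type BAT for the 9 transporters tested, with TMM scaling in edgeR (black, with its 95% interval), library size alone in edgeR (squares) and quantile normalization in limma (triangles). Slc1a5 sits lowest and near 0 under the alternatives, and the fitted values of Slc7a11 and Slc7a5, with 0 and 3 counts in wild-type BAT, depend on the count added before logs are taken.

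The scaling bears on these values because without TMM factors the median over all tested genes shifted, from a log2 fold change of 0.03 to 0.45. The median over the 9 transporters tested was 2.78 with TMM scaling, also with Slc7a11 set at its ratio to the floor. It was 3.19 where library size alone was used and 2.17 after quantile normalization. With either alternative 8 of the 9 were higher, as Slc38a2 passed the threshold and Slc1a5 no longer did. With library size alone 45.4% of all genes were higher and 10.5% lower, and under quantile normalization 20.9% were higher and 23.7% lower. By mean CPM, Slc1a5, Slc3a2, Slc38a2 and Slc7a1 led in this order in both genotypes. They were followed by Slc1a4, Slc6a9, Slc7a3, Slc38a1, Slc7a5 and Slc7a11 in wild-type BAT and by Slc38a1, Slc6a9, Slc1a4, Slc7a5, Slc7a11 and Slc7a3 in Letmd1 KO BAT. In wild-type BAT the range of Slc7a1 overlapped that of Slc1a4, which was higher than Slc7a1 in wild-type replicate 1, and the ranges of Slc1a4, Slc6a9, Slc7a3 and Slc38a1 overlapped. In wild-type BAT, Slc3a2 and Slc38a2 did not differ beyond their spread (131 ± 33.9 and 126 ± 36.2 CPM), whereas in Letmd1 KO BAT they were at 288 ± 24.0 and 159 ± 16.4 CPM (SD, n = 3 each). In Letmd1 KO BAT, Slc3a2 overlapped Slc1a5, at 357 ± 70.5 CPM (SD, n = 3). Among the scarce genes in Letmd1 KO BAT, Slc38a1 at 11.5 ± 2.52, Slc6a9 at 9.67 ± 1.145 and Slc1a4 at 8.40 ± 0.519 CPM overlapped with their neighbours in this order, as did Slc7a5 at 3.33 ± 0.134 and Slc7a11 at 2.51 ± 0.942 CPM (SD, n = 3 each).

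Summed over the 10 genes, the level was 782, 774 and 755 CPM in the wild-type mice and 848, 900 and 860 CPM in the Letmd1 KO mice, a ratio of means of 1.13. Without Slc1a5, the sum of the remaining 9 was 341, 258 and 200 CPM in wild-type and 547, 464 and 526 CPM in Letmd1 KO mice, a ratio of 1.92. Slc1a5 held 65.5 ± 8.63% of the summed level in wild-type and 40.9 ± 6.73% in Letmd1 KO BAT, and Slc3a2 held 17.0 ± 4.12% and 33.2 ± 3.76% (SD, n = 3 each). Slc38a2 held 16.3 ± 4.42% and 18.4 ± 2.42% (SD, n = 3 each). The shares do not depend on the scaling of the libraries. Slc7a1 went from 0.429 ± 0.129% to 3.39 ± 0.54% of the sum, the largest share among the scarce genes (SD, n = 3 each).

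**Figure D4:**
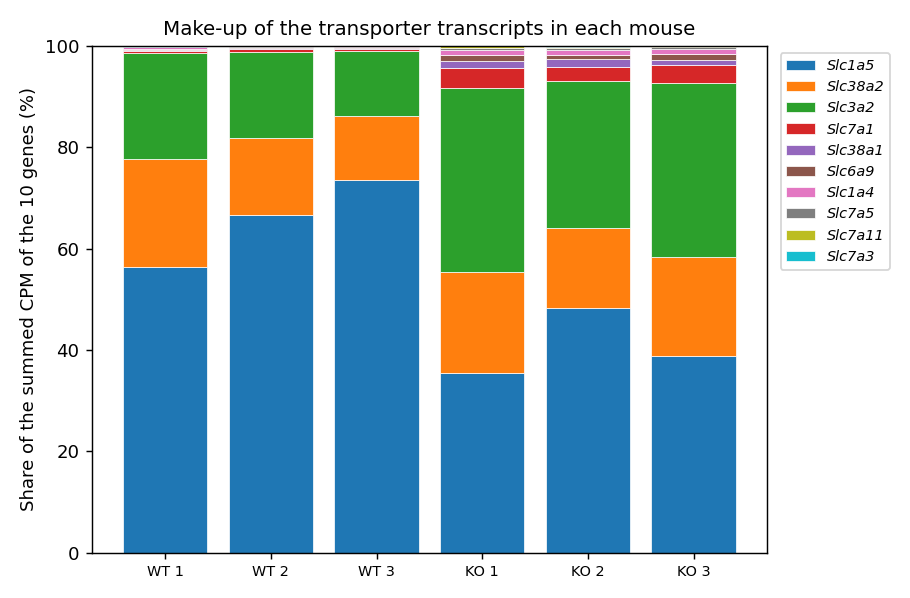
Share of each of the 10 transporters in their summed CPM, in percent, with 1 stacked bar per mouse. Slc1a5 takes between 56.4 and 73.5% in the wild-type mice and between 35.5 and 48.4% in the Letmd1 KO mice, where Slc3a2 and Slc7a1 take more.

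In each mouse, 4 ratios compared a light chain with its heavy chain and close relatives with each other. After 0.5 CPM was added to each value, the log2 ratio was higher in every Letmd1 KO mouse than in every wild-type mouse for all 4. The mean difference was 2.77 for Slc38a1 to Slc38a2 and 2.51 for Slc1a4 to Slc1a5. For Slc7a5 and Slc7a11 the added 0.5 CPM exceeds every wild-type level, so that it sets the size of their difference (1.498 and 1.38 relative to Slc3a2), which cannot be ranked against the others. Without it, Slc7a5 came to 0, 0.162 and 0.134% of the level of Slc3a2 in wild-type and to 1.11, 1.22 and 1.16% in Letmd1 KO mice, and Slc7a11 to 0% and to 0.894, 1.27 and 0.499%. The two-sided exact permutation test gave p = 0.1 for each (adjusted p = 0.1), the lowest value that a design of 3 against 3 can reach.

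Other amino acid transporters did not move one way. Of 43 further transporters from the SLC1, SLC3, SLC6, SLC7, SLC16, SLC36, SLC38 and SLC43 families, 10 had no counts in any mouse and 19 were tested, of which 7 were higher and 5 lower, with a median log2 fold change of 0.24 against 0.03 for all genes tested. With library size alone 10 were higher and 4 lower, and by quantile normalization 6 and 5. Of all 207 tested genes with an Slc symbol outside the 10, 51 were higher and 59 lower (80 and 30 with library size alone). Slc1a2, the glutamate transporter GLT-1, rose from 0, 1 and 0 counts in the wild-type mice to 54 counts in all in the Letmd1 KO mice, a ratio of 42.3 with a 95% counting interval of 7.28 to 1700 (adjusted p = 0.00127 from edgeR). Like Slc7a5 and Slc7a11, it passed the filter through the Letmd1 KO mice alone and could enter the test only as a higher gene. The cationic transporter Slc7a2 and the light chain Slc7a8, given above, were the next highest. Among abundant transporters, several fell. Slc36a2, which carries proline and glycine with protons and is used as a marker of brown adipocytes, was at 528, 503 and 479 CPM in wild-type and at 136, 174 and 148 CPM in Letmd1 KO mice (log2 fold change -1.72, SE 0.12, adjusted p = 1.26e-05 from edgeR). Slc1a3, the glutamate and aspartate transporter GLAST, fell from 317 ± 28.0 to 116 ± 43.4 CPM (SD, n = 3 each, adjusted p = 0.000883 from edgeR). The log2 fold change of the light chain Slc7a6 lay between those of Slc36a2 and Slc1a3. Summed over all 43 genes, the level lay between 1449 and 1547 CPM in wild-type and between 632 and 898 CPM in Letmd1 KO mice.

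**Figure D5:**
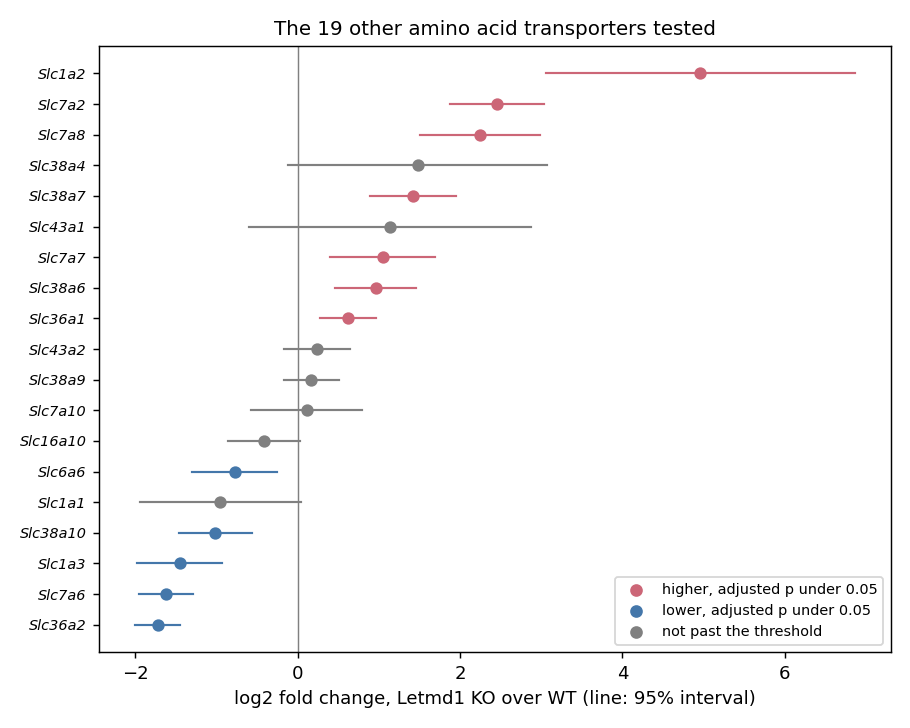
Log2 fold change of Letmd1 KO over wild-type BAT with its 95% interval for the 19 other amino acid transporters tested, coloured by the edgeR call. Slc1a2, Slc7a2 and Slc7a8 are highest and Slc36a2, Slc7a6 and Slc1a3 lowest, with 7 genes not past the threshold in between and among them.

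Regulators of the stress response were measured in the same mice. Of 17 tested, 8 were higher and 2 lower, with a median log2 fold change of 0.48, while 14 were higher and 1 lower with library size alone and 9 and 1 by quantile normalization. Atf4 was at 323, 228 and 164 CPM in wild-type and at 647, 561 and 746 CPM in Letmd1 KO mice (log2 fold change 1.45, SE 0.23, adjusted p = 0.000803 from edgeR). Its order among the wild-type mice, highest in replicate 1 and lowest in replicate 3, was also that of Slc3a2 and Slc38a2 and the reverse of that of Slc1a5. Dio2 and Flcn had this order as well, and the share of all genes with it was not counted. Among the Letmd1 KO mice Atf4 was highest in replicate 3 but Slc3a2 and Slc38a2 in replicate 1, with replicate 2 lowest for each. Factors that act beside or after ATF4 rose too. Trib3, a pseudokinase that restrains the response, rose from 7.63 ± 2.20 to 382 ± 51.0 CPM, Ddit3, which encodes CHOP, from 80.3 ± 8.40 to 560 ± 101.7 CPM, and Atf3 from 1.74 ± 0.531 to 52.8 ± 3.09 CPM (SD, n = 3 each, adjusted p of 9.01e-07, 4.24e-06 and 1.27e-06 from edgeR). Atf5, Ppp1r15a, which encodes the eIF2α phosphatase subunit GADD34, Nupr1 and Chac1, which degrades glutathione, rose by 1.83, 2.99, 1.82 and 3.59 on the log2 scale, each past the threshold. Cebpb, a C/EBP partner of ATF4, fell by 1.13 and Ppp1r15b by 0.36 on that scale, at adjusted p of 3e-04 and 0.0151 from edgeR, and the call for Ppp1r15b was lost with library size alone (0.057) and by quantile normalization (-0.14). The eIF2α kinases Eif2ak1, Eif2ak2, Eif2ak3 and Eif2ak4, their target Eif2s1, Cebpg and Ddit4 did not pass the threshold, with log2 fold changes between -0.80 and 0.48, and Sesn2 was too low to be tested. With library size alone the 4 kinases, Eif2s1 and Cebpg passed it as higher, Eif2ak1 with a change of sign, from -0.11 to 0.31. By quantile normalization Cebpg passed it as well (0.35).

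Enzymes that make or use the transported amino acids were also measured. Of 17 tested, 10 were higher and 2 lower, with a median log2 fold change of 0.71, while 12 were higher and 1 lower with library size alone and 8 and 2 by quantile normalization. Glul, glutamine synthetase, was at 4125, 5144 and 4305 CPM in wild-type and at 325, 932 and 369 CPM in Letmd1 KO mice (log2 fold change -3.06, SE 0.38, adjusted p = 0.000217 from edgeR). In both Glul and the glutamine exchanger Slc1a5, Letmd1 KO replicate 2 was highest among the knockout mice, as it was for Adrb3, Adipoq and Slc1a3. A highest value in that mouse is thus not particular to glutamine genes. Of the serine synthesis enzymes, Phgdh rose from 3.90 ± 0.407 to 84.0 ± 15.8 CPM and Psat1 from 3.53 ± 0.457 to 63.7 ± 9.45 CPM (SD, n = 3 each, adjusted p of 1.27e-06 and 1.46e-06 from edgeR). Aldh18a1, which starts proline synthesis from glutamate, rose by 3.34 on the log2 scale, and the cytosolic glycine and serine enzyme Shmt1 fell by 0.999, with overlapping values and a call that was lost with library size alone (-0.58).

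Genes that sense amino acids at the lysosome were also listed. Of 20 tested, 2 were higher and 6 lower, with a median log2 fold change of -0.30. With library size alone 5 were higher and 3 lower, and the median was 0.12, and by quantile normalization 2 were higher and 7 lower. Rragd, a Rag GTPase, rose from 1.504 ± 0.174 to 13.8 ± 1.202 CPM and Lars, leucyl-tRNA synthetase, from 41.4 ± 0.82 to 78.8 ± 2.76 CPM (SD, n = 3 each, adjusted p of 1.57e-05 and 0.000106 from edgeR). Mtor, the kinase of the growth complex that leucine imported by LAT1 activates, fell by 1.66, Flcn by 1.10 and Lamtor4 by 0.85 on the log2 scale.

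Markers of other cell types changed with genotype beside the transporters. All 13 macrophage markers were higher, and their summed level was 252, 185 and 262 CPM in wild-type and 1765, 3681 and 1523 CPM in Letmd1 KO mice. Of the 3 most abundant, Lgals3 was at 562 ± 240.2, Gpnmb at 373 ± 555.5 and C1qb at 248 ± 65.9 CPM in Letmd1 KO BAT (SD, n = 3 each), and Gpnmb reached 1014 CPM in replicate 2 against 63.1 and 41.0 in the others. All 8 fibroblast and progenitor markers, led by Col1a2, Col3a1 and Col1a1, were higher too, with sums of 2195 to 2900 CPM in wild-type and 5968 to 10335 CPM in Letmd1 KO mice. Letmd1 KO replicate 2 had the highest sums of both lists and, among the knockout mice, the highest Slc7a11, Slc38a1 and Slc1a5 and the lowest Slc7a1, Slc3a2, Slc7a5, Slc1a4, Slc6a9 and Slc38a2. Without that mouse, the 7 higher calls and the 1 lower call of the transporters were still made. The other Letmd1 KO mice, with macrophage sums of 1765 and 1523 CPM, also lay above the wild-type mice. Leaving out replicate 2 therefore does not bear on the part of these cells in the change of the transporters, which was not tested.

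Of 12 markers listed for brown adipocytes, 9 were lower. Fabp4, Adipoq, Plin1 and Pparg among them are general to adipocytes. The sum of all 12 lay between 40318 and 45792 CPM in wild-type and between 12599 and 16318 CPM in Letmd1 KO mice. The most abundant of them in wild-type BAT were Fabp4, Ucp1 and Cidea, and Fabp4, at 28020 CPM there, made up most of the sum. Of 15 skeletal muscle markers, 3 were higher with TMM scaling, 6 with library size alone and 10 by quantile normalization. Their sum varied within the genotypes, from 91.8 to 538 CPM in wild-type and from 382 to 1399 CPM in Letmd1 KO mice. Of 10 lymphocyte markers only 3 were tested, of which 2 were higher (Nkg7 and Cd4, with adjusted p of 0.162 and 0.168 by quantile normalization in limma), and the sum over all 10 stayed between 3.34 and 15.2 CPM in all mice. Of 8 endothelial markers 1 was higher and 3 lower, while 2 were higher and 1 lower with library size alone and 2 were lower by quantile normalization. The sum of the erythroid markers overlapped, at 9965 to 18521 CPM in wild-type and 10002 to 13670 CPM in Letmd1 KO mice. Of 7 nerve markers tested, 5 were higher (7 with library size alone, 3 by quantile normalization), and Th had no counts in any mouse. The part of each of these in the transporter values was not tested.

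By likeness of pattern, Slc7a1, the transporter with the smallest p, was set against all 12986 tested genes outside the 10. The 5 genes with the highest Pearson correlation of log2 CPM over the 6 mice were Rbm39, Cyp2c44, Pitpnm3, Haus8 and Scd3, each at an r of at least 0.998. The 6 mice fall into 2 genotype groups, and 1893 genes had an r over 0.9. Scd3, a fatty acid desaturase, was at 6.41 ± 2.62 CPM in wild-type and 56.4 ± 7.86 CPM in Letmd1 KO BAT (SD, n = 3 each), and Pitpnm3 at 1.12 ± 0.605 and 29.9 ± 5.70 CPM (SD, n = 3 each).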

How the data were processed

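Total RNA of the interscapular BAT depot of 3 wild-type and 3 Letmd1 KO mice was made into QuantSeq 3′ libraries. Reads were aligned by the authors (Bowtie2), and alignments, multiple ones included, were counted with Bedtools. The deposited counts are whole numbers, 1 per gene symbol and mouse. The submitters' processing notes name mm10. Tool versions, the annotation and the use of strand are not given in the sources used here, and the quantile normalization that the study names is not in the deposited counts. Rows held 23282 symbols, of which 35 occurred more than once, none a transporter of the set.

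The software was R 4.3.3 with the packages DESeq2 1.42.0, edgeR 4.0.16 and limma 3.58.1. Genotypes were compared by the quasi-likelihood method of edgeR with TMM factors, after its default filter (minimum count 10, minimum total 15), which kept 12995 rows. Adjusted p-values are Benjamini-Hochberg values over these rows, with a threshold of 0.05. Levels (CPM) are relative to the scaled library size. The standard error is the log2 fold change divided by the root of the F statistic. The steps were tested on simulated counts with known changes in a small part of the genes, balanced between higher and lower. That simulation held no shift over all genes, so it does not bear on the choice of scaling. Within-mouse ratios were compared by exact permutation tests.

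The transporters and gene lists were chosen with earlier results of these data known. Genes named are the 10 transporters, all stress regulators listed, up to 3 called genes with the most positive and the most negative change of the other lists, the most abundant cell type markers and the 5 genes most like Slc7a1. The further light chains of Slc3a2 and the genes that overlap Slc6a9 were named after their values were seen. The same holds for Dio2, Flcn, Adrb3, Adipoq and Slc1a3 where they are set beside the order of the mice. The markers Plin1, Pparg, Nkg7, Cd4 and Th are also named outside these rules. The labels do not say whether replicate numbers pair the mice. The correlation of deviations from the group means was 0.07, -0.11 and -0.09 for same-numbered mice and -0.09 to 0.19 for the others. With 3 mice per group this shows no pairing but cannot exclude it. Mice of the same genotype differed pairwise beyond counting noise (chi-square over its degrees of freedom 12.1 to 36.3). The paper names littermate controls for its BAT histology but gives no litters for the mice sequenced. The p-values measure the spread between these mice, and whether that is also a spread between litters is not known. Positions are from GENCODE vM21 on GRCm38, and promoter sequences from RefSeq on GRCm38.p6. The alternatives were library size alone, quantile normalization with limma, DESeq2, no filter, a mean of at least 50 counts, the replicate number as a block, other thresholds and leaving out each mouse in turn.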

Additional observations from a re-analysis of the deposited data

How the results depend on the processing

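Over the 9 transporters tested, 97 of 106 values under the alternatives kept the direction and the side of the threshold, and none changed direction. The 106 include the values of Slc7a5 and Slc7a11, which passed the filter through the Letmd1 KO mice alone. These genes could enter only as higher genes, so their unchanged direction adds nothing. The number past the threshold was 8, and was 7 to 9 with 1 mouse omitted. It was 6 where a mean of 50 counts was asked for, which by construction leaves out Slc7a5 and Slc7a11. At a threshold of 0.01 or with a 2-fold change it was 7. Over all genes kept in each setting, 3082 were higher and 2896 lower in the main test. With 1 mouse omitted, 2494 to 2999 were higher and 2348 to 2869 lower. With a mean of 50 counts, 2584 were higher and 2449 lower. At 0.01 these numbers were 1985 and 1954, and with a 2-fold change 1899 and 1149. The exceptions among the 106 values concern Slc1a5 and Slc38a2. For Slc1a5 (log2 fold change -0.50), the call was lost with library size alone (-0.081) or quantile normalization (-0.13), and on omitting wild-type replicate 2, wild-type replicate 3, Letmd1 KO replicate 1 or Letmd1 KO replicate 3, in a range of -0.67 to -0.39 over all mice left out. Slc38a2 (0.34) passed the threshold with library size alone (0.76) or quantile normalization (0.59), and without wild-type replicate 1, in a range of 0.15 to 0.58. The log2 ratio of the summed level of the 10 genes was 0.17 with TMM scaling and 0.59 with library size alone, close to the shift of all genes from 0.03 to 0.45, and 0.15 to 0.19 with each mouse left out. The 4 within-mouse ratios kept their direction. With the replicate number as a block, 8 transporters were called, 7 higher and 1 lower, as without it (over all genes 2886 higher and 2713 lower, against 3082 and 2896), and the block changed no call of a transporter. Whether the numbers in the labels pair the mice is not given. Depth limits Slc7a3, Slc7a5 and Slc7a11, with 35, 3 and 0 counts in wild-type BAT. Fitted values of Slc7a5 moved from 4.73 to 5.53 without wild-type replicate 2, and of Slc38a1 from 3.58 to 4.24 without wild-type replicate 1.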
